A study of Mus musculus with 16 samples.

Results

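Genes of bone formation and mineralization were followed across 4 tendons of mice of the inbred strain C57BL/6J. The set comprised 10 genes, matched by symbol in a table of 41204 genes, and 9 of the 10 passed the filter on low counts that left 23754 genes for testing. The genes were Ibsp, Spp1, Bglap, Bglap2, Runx2, Sp7, Alpl, Dmp1, Phex and Sost, and Sost was the one left untested. The tendons were the Achilles, which joins the calf muscles to the heel, the flexor of the forepaw, the patellar tendon of the knee and the supraspinatus tendon of the shoulder (Achilles, Flexor, Patellar and Supraspinatus below). Each was represented by 4 RNA libraries, numbered by mouse in the labels, with no treatment or engineered allele named. The question put by the design was how mRNA levels differ between each pair of tendons.

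Bone matrix is laid down by osteoblasts, whose identity depends on the transcription factors encoded by Runx2 and Sp7. Mature osteoblasts secrete acidic matrix proteins such as bone sialoprotein and osteopontin together with osteocalcin, while tissue-nonspecific alkaline phosphatase removes pyrophosphate, an inhibitor of mineral. Osteoblasts buried in matrix become osteocytes, which express Dmp1, Phex and Sost. Tendons meet bone at a transitional zone that holds fibrocartilage and mineral, and several of these genes, Spp1 and Alpl among them, are also expressed outside bone.

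Levels are TMM-scaled counts relative to library size (CPM), and differences are log2 fold changes with standard errors, first-named tendon minus second, 4 libraries against 4. Unless stated otherwise, adjusted p-values come from edgeR's quasi-likelihood test with Benjamini-Hochberg adjustment over all genes tested, and a gene was called at an adjusted p of at most 0.05. Patellar libraries held 34559686 to 63235636 counts and the libraries of the other tendons 84414005 to 107805065. Genes of rRNA-like sequence took 13.2% to 42.0% of Patellar counts and 1.86% to 4.91% elsewhere. The tendon markers Scx, Mkx and Tnmd were detected in every tendon, and the summed level of 8 tendon markers ranged from 7074 to 51768 CPM over the libraries, highest in Patellar. The p-values measure the spread between these libraries. It is unknown here whether a mouse number refers to 1 animal in all tendons.

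The levels fell into several patterns rather than one. Bone sialoprotein mRNA was highest in Achilles and differed between all 4 tendons, osteopontin was high in both Achilles and Flexor, Dmp1 was highest in Patellar, and Alpl was lowest there. All 9 tested members differed over the 4 tendons, a call made for 64.9% of all genes. The share of all genes called in the same direction is given in parentheses beside each of the following counts. Between Flexor and Achilles 4 members were called, as were 16.2% of all genes. All 4 were lower in Flexor (background 9.72%) and 0 higher (6.5%). Between Patellar and Achilles 6 were called (38.4%), 5 lower (21.1%) and 1 higher (17.4%) in Patellar. Between Supraspinatus and Achilles 7 were called (33.6%), all lower in Supraspinatus (16.7%) and 0 higher (16.9%). Between Patellar and Flexor 7 were called (50.3%), 4 higher (24.2%) and 3 lower (26.2%) in Patellar. Between Supraspinatus and Flexor 6 were called (27.1%), all lower in Supraspinatus (12.4%) and 0 higher (14.7%). Between Supraspinatus and Patellar 8 were called (53.3%), 7 lower (26.8%) and 1 higher (26.4%) in Supraspinatus. In the 3 comparisons with 0 members higher, edgeR also gave 0 higher at an unadjusted p under 0.05, as did DESeq2 and limma-voom after adjustment. The median log2 fold change of the 9 tested members was -5.94 in Supraspinatus minus Achilles, against -0.04 over all genes. It was -1.95 in Flexor minus Achilles, -1.62 in Patellar minus Achilles and 1.53 in Patellar minus Flexor, where the medians over all genes lay between -0.01 and 0.00. It was -2.89 in Supraspinatus minus Flexor and -2.57 in Supraspinatus minus Patellar, with -0.07 and -0.08 over all genes. Bglap, Bglap2 and Sp7 passed the filter on low counts through the tendons in which they were higher, so these counts and medians are a description.

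**Figure D1:**
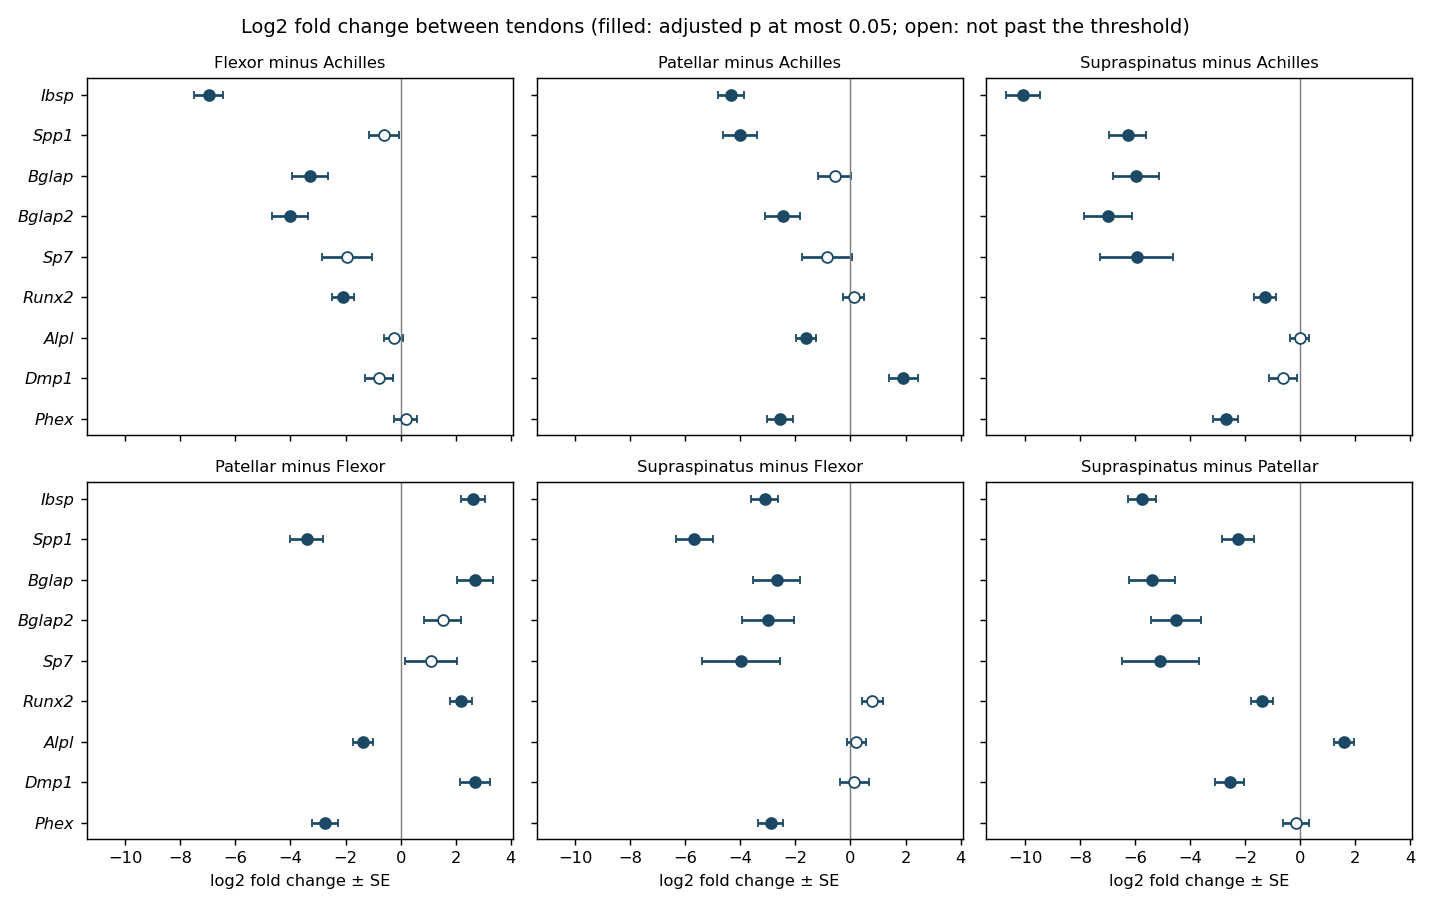
Log2 fold changes (horizontal axis) of the 9 tested genes in the 6 pairwise comparisons, with bars of 1 standard error; filled points passed an adjusted p of 0.05 and open points did not. Ibsp lies far from 0 in every panel, reaching -10.08 in Supraspinatus minus Achilles, while Alpl and Dmp1 have filled points only in the 3 panels that include Patellar.

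Ibsp and Spp1 code for bone sialoprotein and osteopontin, 2 secreted acidic glycoproteins that bind mineral and cell-surface integrins. They lie on chromosome 5 of GRCm38 (mm10) in a cluster of mineralized-tissue genes, in the order Dspp, Dmp1, Ibsp, Mepe and Spp1, all on the plus strand. Ibsp (ENSMUSG00000029306) spans 104299171 to 104311469 and Spp1 (ENSMUSG00000029304) spans 104435118 to 104441050, 123.6 kb further on. Dmp1 ends 85.1 kb before Ibsp.

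Ibsp was at 293, 807, 351 and 606 CPM in Achilles libraries 1 to 4 and at 37.9, 27.3, 23.5 and 13.3 CPM in Patellar. In Flexor it was at 3.21, 4.07, 1.69 and 7.48 CPM, and in Supraspinatus at 0.379, 0.314, 0.672 and 0.524 CPM. No library of one tendon overlapped with those of another, so the order was Achilles, Patellar, Flexor, Supraspinatus, with means of 514 ± 238, 25.5 ± 10.2, 4.11 ± 2.45 and 0.472 ± 0.159 CPM (SD, n = 4). All 6 comparisons were called. Ibsp changed by -6.97 ± 0.53 in Flexor minus Achilles (adjusted p = 1.04e-06), -4.33 ± 0.47 in Patellar minus Achilles (6.88e-06) and -10.08 ± 0.61 in Supraspinatus minus Achilles (5.82e-08). Among the other tendons it was higher by 2.63 ± 0.44 in Patellar than in Flexor (adjusted p = 1.29e-04), and it changed by -3.12 ± 0.48 in Supraspinatus minus Flexor (1.39e-04) and by -5.75 ± 0.52 in Supraspinatus minus Patellar (3.17e-07). In bulk tissue such as this, fewer cells of a type and less RNA per cell cannot be told apart.

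Spp1 was at 1429, 2238, 1082 and 1271 CPM in Achilles and at 635, 1188, 789 and 1361 CPM in Flexor. These 2 groups overlapped and did not pass the test (-0.60 ± 0.55, adjusted p = 0.521), which does not show that they are alike. In Patellar it was at 179.9, 88.2, 58.6 and 46.1 CPM, below every Achilles and Flexor library. Supraspinatus libraries were at 10.5, 11.6, 49.3 and 6.33 CPM, and the third of them exceeded the lowest Patellar library. Spp1 changed by -4.01 ± 0.62 in Patellar minus Achilles (adjusted p = 1.25e-04) and by -3.41 ± 0.60 in Patellar minus Flexor (2.1e-04). It changed by -6.28 ± 0.69 in Supraspinatus minus Achilles, -5.68 ± 0.67 in Supraspinatus minus Flexor and -2.26 ± 0.57 in Supraspinatus minus Patellar (adjusted p = 7.62e-06, 1.02e-05 and 0.00352). Without Supraspinatus replicate 3 the last 3 values were -7.31, -6.71 and -3.28. A gene model of uncertain coding status, Gm42793, overlaps Spp1 on the same strand, and reads over the shared stretch could count for either.

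**Figure D2:**
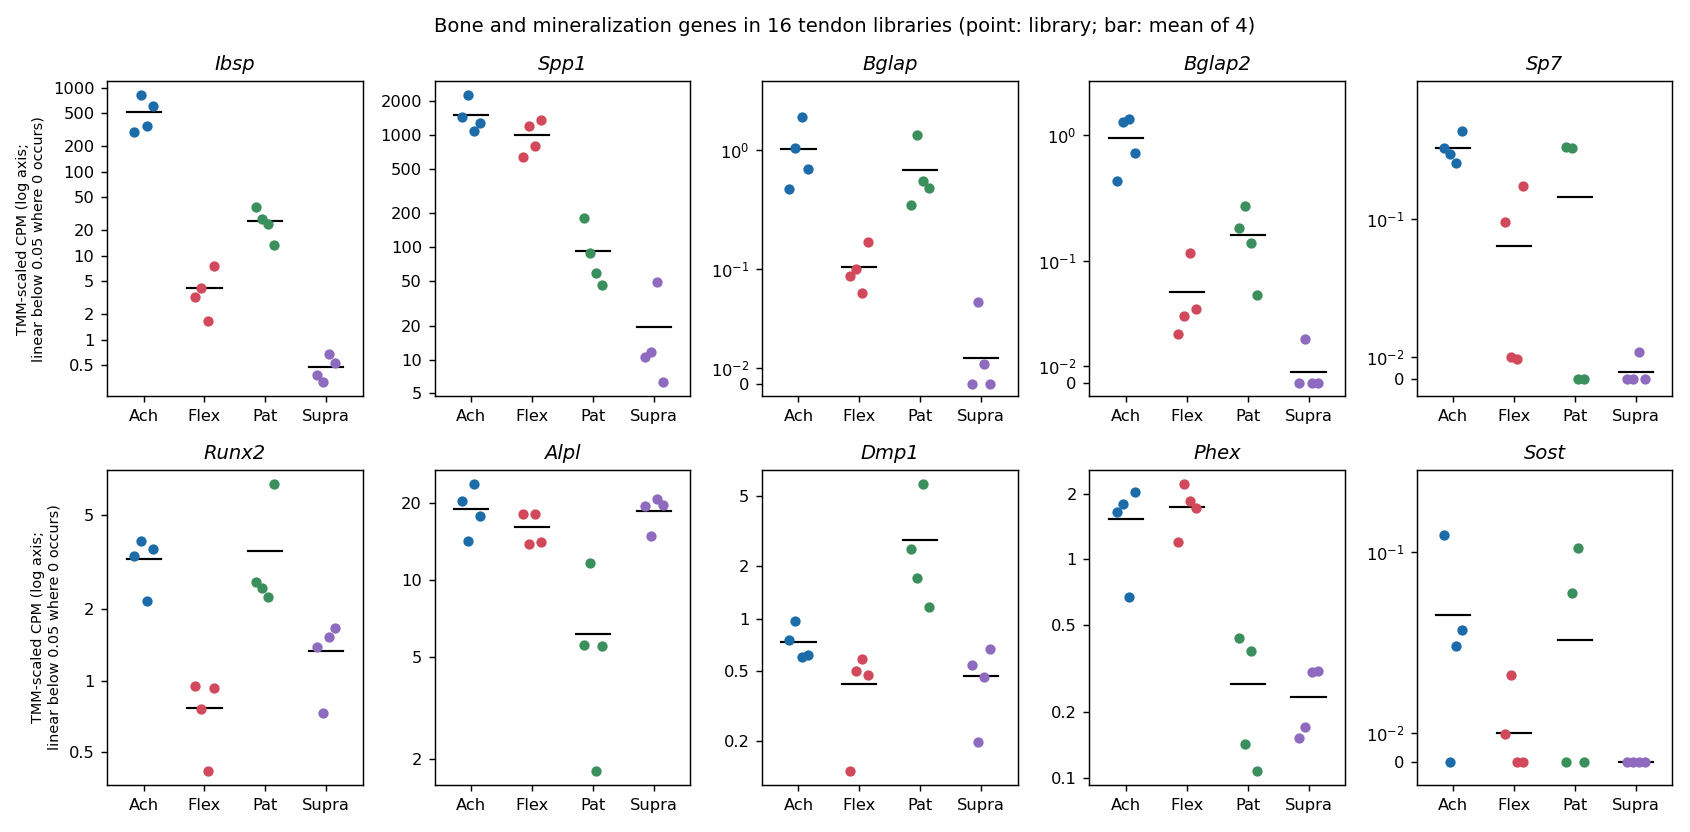
TMM-scaled CPM of the 10 genes (vertical axes, logarithmic, with a linear stretch below 0.05 CPM for the 4 genes that have libraries at 0) in 4 tendons (Ach, Achilles; Flex, Flexor; Pat, Patellar; Supra, Supraspinatus); each point is 1 library and each bar the mean of 4. Ibsp separates all 4 tendons, Spp1 is high in Achilles and Flexor, Dmp1 is highest and Alpl lowest in Patellar, and Sost is at 0 in all Supraspinatus libraries.

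The balance of the 2 mRNAs differed as well. This ratio within a library is free of depth and scaling. It was chosen after the levels were seen and is given as a description. For every 100 Spp1 counts there were 20.5, 36.1, 32.4 and 47.7 Ibsp counts in Achilles and 21.1, 31.0, 40.1 and 28.8 in Patellar. The ratios of these hindlimb tendons overlapped, although both mRNAs were lower in Patellar. Flexor libraries held 0.505, 0.343, 0.214 and 0.550 Ibsp counts per 100 Spp1 counts, and Supraspinatus libraries 3.61, 2.71, 1.36 and 8.27. All Flexor ratios lay below all others, and Flexor paired a high Spp1 level with a low Ibsp level.

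**Figure D3:**
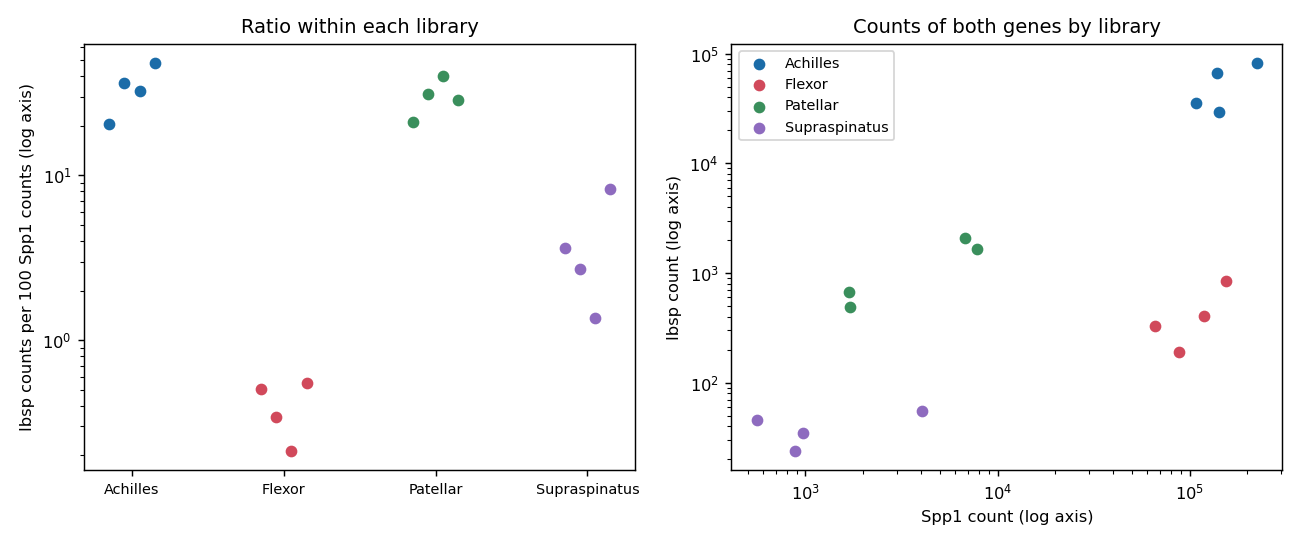
Number of Ibsp counts per 100 Spp1 counts by tendon (left) and counts of both genes, not scaled for depth, in the 16 libraries (right; logarithmic axes, 1 point per library). Achilles and Patellar share a ratio range, with means of 34.2 and 30.2, while Flexor libraries average 0.403 and Supraspinatus libraries 3.99.

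Osteocalcin, a vitamin K-dependent protein secreted by mature osteoblasts, is encoded in mice by neighbouring copies on chromosome 3. Bglap (ENSMUSG00000074483, 88383501 to 88384464) and Bglap2 (ENSMUSG00000074486, 88377736 to 88378699), both on the minus strand, lie 4.8 kb apart. Their transcripts are 98.64% identical over 440 aligned bases, with a shared run of 241 bases, and Bglap3 is 96.14% and 97.66% identical to them. No source used here says how the counting divided reads between the copies, so their separate levels are uncertain.

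The upstream sequences below, from RefSeq on GRCm38.p6, show the motif read by the factor that Runx2 encodes in Spp1 and Bglap, as examples from the 4 members whose promoters hold it. Each is the 250 bases before the annotated start, 5′ to 3′ on the gene's strand, with the RUNX core (TGTGGT, or ACCACA on the other strand) in capitals. The Spp1 stretch is chr5:104434861-104435110 (plus strand) and the Bglap stretch is chr3:88384467-88384716 (minus strand).
Spp1: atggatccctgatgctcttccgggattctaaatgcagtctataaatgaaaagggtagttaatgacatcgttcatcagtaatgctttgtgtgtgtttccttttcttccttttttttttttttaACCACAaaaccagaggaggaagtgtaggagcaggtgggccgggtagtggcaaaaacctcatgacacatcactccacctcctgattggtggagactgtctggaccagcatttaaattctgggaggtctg
Bglap: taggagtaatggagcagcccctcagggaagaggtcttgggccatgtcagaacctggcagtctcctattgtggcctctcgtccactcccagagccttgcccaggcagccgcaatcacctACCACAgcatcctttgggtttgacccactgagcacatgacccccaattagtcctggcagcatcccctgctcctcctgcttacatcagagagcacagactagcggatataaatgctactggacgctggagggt
The match lies 128 to 123 bases upstream of the Spp1 start and 132 to 127 bases upstream of the Bglap start. A search of both strands found it in 4 of 11 promoters of the 8 members listed, the others being those of Runx2 itself and the second promoter of Dmp1. It was present in 14.05% of all 32851 promoters of the same length. The motif TATAAA lies 27 to 22 bases upstream of the Bglap start, and 12.37% of promoters hold it on either strand. The promoter of Ibsp holds no RUNX core in this window, which says only that these letters are not there.

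Bglap was at 0.470, 1.05, 1.92 and 0.693 CPM in Achilles and at 0.345, 1.34, 0.555 and 0.484 CPM in Patellar. The 2 hindlimb groups overlapped and did not pass (-0.57 ± 0.60 in Patellar minus Achilles, adjusted p = 0.475). Flexor libraries were at 0.0870, 0.1001, 0.0624 and 0.167 CPM, below all Achilles and Patellar libraries. Supraspinatus libraries held 0, 4, 1 and 0 Bglap counts. Bglap changed by -3.29 ± 0.66 in Flexor minus Achilles (adjusted p = 0.00301) and was higher by 2.71 ± 0.66 in Patellar than in Flexor (0.00271). The Supraspinatus values were -5.96 ± 0.83 against Achilles and -5.39 ± 0.83 against Patellar (adjusted p = 6.03e-05 and 5.39e-05), and without Supraspinatus replicate 2 they were -7.61 and -7.02. Against Flexor the value was -2.68 ± 0.85 (adjusted p = 0.0282), -4.32 without Supraspinatus replicate 2. That call was lost without Supraspinatus replicate 1, 3 or 4 or Flexor replicate 4 (adjusted p = 0.0818, 0.0724, 0.0758 and 0.0842).

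Bglap2 was at 0.430, 1.28, 1.35 and 0.720 CPM in Achilles and at 0.184, 0.273, 0.139 and 0.0538 CPM in Patellar, with no overlap (-2.47 ± 0.62, adjusted p = 0.0053). Flexor libraries were at 0.0290, 0.0400, 0.116 and 0.0441 CPM (-4.00 ± 0.65 against Achilles, adjusted p = 7.07e-04, and -4.59 without Flexor replicate 3). Supraspinatus held 2 Bglap2 counts in all, both in replicate 2. The pooled level was 159 times higher in Achilles than in Supraspinatus (95% exact counting interval 43.8 to 1319), 31.8 times higher in Patellar (8.17 to 273) and 9.86 times higher in Flexor (2.46 to 85.9). These intervals cover counting error only. The edgeR adjusted p-values of the 3 comparisons were 2.04e-05, 5.73e-04 and 0.0262, and the last call was lost without Supraspinatus replicate 1, 3 or 4 or Flexor replicate 3 (adjusted p = 0.0782, 0.0749, 0.0718 and 0.0958). Patellar minus Flexor (1.53 ± 0.66) did not pass (adjusted p = 0.066), although it did with DESeq2 (adjusted p = 0.0353).

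Ibsp and Bglap2 were the members higher in Achilles than in each of the 3 other tendons, comparisons that share the Achilles libraries. That pattern was found in 1.15% of all genes. Ibsp, Spp1, Bglap, Bglap2 and Sp7 were lower in Supraspinatus than in each other tendon, a pattern found in 5.19% of genes. Bglap, Bglap2 and Sp7 passed the filter on low counts through the tendons in which they were higher, so both patterns are given as a description. Without Supraspinatus replicate 1, 3 or 4 that set of 5 was reduced to Ibsp and Spp1, and without Flexor replicate 4 to Ibsp, Spp1 and Bglap2. With the 8 libraries of each pair fitted alone, Ibsp and Spp1 were also the only ones left. In that setting 6 members were tested in Supraspinatus minus Flexor, and Bglap, Bglap2 and Sp7 were not among them.

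Runx2 encodes the transcription factor that starts the osteoblast programme and also acts in hypertrophic cartilage. The gene (ENSMUSG00000039153, chromosome 17, 44495987 to 44814797, minus strand) overlaps Supt3 and the antisense genes Runx2os1, Runx2os2 and Runx2os3 on the opposite strand. As no source used here gives the strand setting of the counting, reads from these genes cannot be told apart from its own. Runx2 was at 3.34, 3.88, 2.16 and 3.59 CPM in Achilles and at 2.60, 2.46, 2.26 and 6.73 CPM in Patellar, overlapping groups that did not pass (0.11 ± 0.38, adjusted p = 0.841). It was at 0.948, 0.760, 0.419 and 0.934 CPM in Flexor and at 1.38, 0.733, 1.53 and 1.67 CPM in Supraspinatus. All Flexor and Supraspinatus libraries lay below all Achilles and Patellar libraries, while Flexor and Supraspinatus overlapped (0.80 ± 0.39, adjusted p = 0.144).

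The Patellar mean of Runx2 rested on replicate 4. Without it, Patellar minus Achilles was -0.43, and the Patellar median was 2.53 CPM against 3.47 CPM in Achilles with all libraries. Runx2 changed by -2.08 ± 0.40 in Flexor minus Achilles (adjusted p = 0.00211) and by -1.28 ± 0.39 in Supraspinatus minus Achilles (0.0178), and without Supraspinatus replicate 2 the latter was -1.08 and did not pass (0.0577). It was higher by 2.19 ± 0.40 in Patellar than in Flexor (adjusted p = 2.8e-04) and changed by -1.40 ± 0.39 in Supraspinatus minus Patellar (0.0066).

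Sp7 encodes osterix, which acts after Runx2 in osteoblast differentiation (ENSMUSG00000060284, chromosome 15, 102356606 to 102367182, minus strand). It was close to the limit of detection, at 0.270, 0.248, 0.220 and 0.347 CPM in Achilles and at 0.0967, 0.0100, 0.00892 and 0.159 CPM in Flexor. In Patellar it was at 0.276 and 0.273 CPM in replicates 1 and 2 and at 0 in replicates 3 and 4. Supraspinatus held 1 Sp7 count in all, in replicate 3. Every Achilles library lay above every Flexor library, but neither Flexor nor Patellar passed against Achilles (adjusted p = 0.164 and 0.482). The pooled level was 92.4 times higher in Achilles than in Supraspinatus (95% exact counting interval 16.2 to 3680), 60.0 times higher in Patellar (10.04 to 2439) and 23.7 times higher in Flexor (3.94 to 966). These comparisons passed with edgeR adjusted p-values of 0.00289, 0.00577 and 0.0463. The last was lost with limma-voom, with no filter, and without any 1 of 10 of the 16 libraries, at adjusted p-values up to 0.153.

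Alpl encodes the tissue-nonspecific alkaline phosphatase (ENSMUSG00000028766, chromosome 4, 137741733 to 137796384, minus strand). It was at 20.5, 14.2, 23.8 and 17.8 CPM in Achilles, 18.2, 13.9, 18.2 and 14.2 CPM in Flexor and 19.6, 14.97, 20.8 and 19.6 CPM in Supraspinatus. These 3 tendons overlapped, and none of the 3 comparisons between them passed (adjusted p = 0.697, 0.965 and 0.684). Patellar libraries, at 5.61, 11.6, 1.81 and 5.54 CPM, lay below all of them. Alpl changed by -1.62 ± 0.36 in Patellar minus Achilles (adjusted p = 0.00211) and by -1.37 ± 0.35 in Patellar minus Flexor (0.00424), and it was higher by 1.59 ± 0.36 in Supraspinatus than in Patellar (0.0014). Patellar was the only tendon in which it was lower than in each of the others, a pattern shared by 14.2% of genes. Supraspinatus, with the lowest level of both matrix glycoprotein mRNAs, thus had an Alpl level within the range of Achilles.

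Dmp1, Phex and Sost are expressed in osteocytes. Dmp1 codes for an acidic matrix protein that nucleates mineral, Phex for a membrane endopeptidase needed for phosphate balance, and Sost for sclerostin, a secreted inhibitor of Wnt signalling. Dmp1 (ENSMUSG00000029307, chromosome 5, 104202613 to 104214102) was at 2.50, 1.71, 5.87 and 1.16 CPM in Patellar, above all libraries of the other tendons. It was at 0.750, 0.962, 0.599 and 0.620 CPM in Achilles, at 0.135, 0.500, 0.589 and 0.476 CPM in Flexor and at 0.541, 0.196, 0.464 and 0.672 CPM in Supraspinatus. Achilles and Supraspinatus overlapped, as did Flexor and Supraspinatus, and none of the 3 comparisons without Patellar passed (adjusted p = 0.34, 0.366 and 0.873).

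Dmp1 was higher in Patellar than in Achilles by 1.93 ± 0.52 (adjusted p = 0.00807) and than in Flexor by 2.71 ± 0.54 (5.68e-04), and it changed by -2.57 ± 0.53 in Supraspinatus minus Patellar (7.94e-04). Without Patellar replicate 3 these values were 1.26 (adjusted p = 0.0351), 2.03 and -1.92. That library also had the highest summed level of 13 marrow and blood markers, 1359 CPM against 313 to 525 CPM in the other Patellar libraries and 25.8 to 146 CPM elsewhere. In Patellar most of that sum came from the haemoglobin genes Hbb-bs and Hba-a1. Their means were 425 ± 324 and 159 ± 120 CPM, of 636 ± 491 CPM for all 13. Prtn3, from the same list, was at 12.2 ± 6.78 CPM in Patellar and 2.86 ± 0.980 CPM in Achilles. In Flexor and Supraspinatus it was at 0.0947 ± 0.0304 and 0.170 ± 0.193 CPM. The part of marrow and blood cells in the Dmp1 level was not tested. Being higher than in each of the other 3 tendons was found for 10.5% of genes in Patellar.

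Phex (ENSMUSG00000057457, chromosome X, 157162075 to 157415312, minus strand) divided the tendons in another way. It was at 1.64, 1.79, 0.669 and 2.04 CPM in Achilles and at 1.199, 2.21, 1.86 and 1.71 CPM in Flexor, overlapping groups. Patellar libraries were at 0.436, 0.143, 0.382 and 0.108 CPM and Supraspinatus libraries at 0.151, 0.170, 0.305 and 0.307 CPM. These also overlapped with each other and lay below all Achilles and Flexor libraries. The 4 comparisons across this divide gave -2.55 ± 0.47 and -2.74 ± 0.47 for Patellar and -2.71 ± 0.46 and -2.89 ± 0.46 for Supraspinatus, against Achilles and Flexor respectively (adjusted p = 5.67e-04, 1.8e-04, 3.22e-04 and 1.88e-04). Within each pair Phex did not pass (adjusted p = 0.82 and 0.804). A processed pseudogene, Gm15172, lies within Phex on the same strand.

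Sost (ENSMUSG00000001494, chromosome 11, 101962458 to 101967015, minus strand) had 12, 0, 4 and 5 counts in Achilles, 1, 3, 0 and 0 in Flexor, and 0, 5, 3 and 0 in Patellar. Supraspinatus libraries had 0 counts, which allows a level of up to 0.0393 CPM in the library of lowest scaled depth (3 counts). With the filter removed, Supraspinatus minus Achilles and Supraspinatus minus Patellar passed narrowly (edgeR adjusted p = 0.0476 and 0.0494) and the other 4 comparisons did not (0.322 to 0.911).

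Per kilobase of exon, which allows genes to be compared, Spp1 was the most abundant of the 10 mRNAs in every tendon, from 913 ± 309 CPM per kb in Achilles through 603 ± 205 in Flexor and 56.6 ± 36.7 in Patellar to 11.8 ± 12.1 in Supraspinatus (SD, n = 4). Ibsp came next in Achilles (248.7 ± 115 CPM per kb) and Patellar (12.3 ± 4.92), while Alpl came next in Flexor (3.99 ± 0.592) and Supraspinatus (4.65 ± 0.640). Sp7 and Sost were the least abundant. The filter on low counts asked for more than 0.103 CPM in at least 4 libraries. Ibsp, Spp1, Runx2, Alpl and Dmp1 exceeded this level in all 16 libraries and Phex in 15. Bglap, Bglap2 and Sp7 exceeded it in 9, 8 and 7 libraries, among them all 4 of Achilles and none of Supraspinatus, so they passed through the tendons in which they were higher.

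Other genes of the osteoblast were summed and counted from a list of 11, of which 10 were tested. Their summed level was 111 to 217 CPM in Achilles, 94.8 to 114 CPM in Patellar, 62.1 to 88.5 CPM in Flexor and 58.0 to 72.0 CPM in Supraspinatus. That is the order of means of Ibsp, while single genes differed from it. In Patellar 1 gene, Pth1r, made up 57.2 ± 5.64 of the summed 104 ± 10.9 CPM. In Supraspinatus minus Achilles 5 of the 10 were called, all lower, against 16.7% of all genes (median log2 fold change -1.22, against -0.04 over all genes). In Flexor minus Achilles 2 were called, both lower, against 9.72% of all genes (median -0.19), and in Patellar minus Achilles 6 were called, all lower, against 21.1% (-1.71). Unlike the sums, in Patellar minus Flexor 1 was higher and 5 lower (24.2% and 26.2% of all genes, median -1.74). In Supraspinatus minus Patellar 3 were higher and 2 lower (26.4% and 26.8%, median 0.46). In Supraspinatus minus Flexor 1 was higher and 3 lower (14.7% and 12.4%, median -0.55). Omd, which codes for osteomodulin, was at 51.4 ± 34.9 CPM in Achilles, 20.3 ± 6.34 CPM in Patellar, 11.7 ± 1.45 CPM in Flexor and 25.4 ± 9.33 CPM in Supraspinatus, and was called lower in Flexor and Patellar than in Achilles. Dlx5 and Msx2, homeobox genes of skeletal development, were at 9.56 ± 5.71 and 8.75 ± 7.26 CPM in Achilles and at 9.23 ± 4.21 and 7.72 ± 3.09 CPM in Flexor. In Patellar they were at 0.241 ± 0.198 and 0.367 ± 0.388 CPM, and in Supraspinatus at 0.786 ± 0.442 and 0.436 ± 0.190 CPM. The division of Achilles and Flexor from Patellar and Supraspinatus was thus also present in Dlx5 and Msx2, and all 4 comparisons across it were called for both. For Msx2, however, the lowest Achilles library (0.764 CPM) lay below the highest Patellar library (0.937 CPM).

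Pth1r, the receptor for parathyroid hormone, showed the other division, at 42.2 ± 15.03 CPM in Achilles and 57.2 ± 5.64 CPM in Patellar against 11.7 ± 4.13 CPM in Flexor and 17.8 ± 4.53 CPM in Supraspinatus. All 4 comparisons across it were called, with edgeR adjusted p-values from 7.52e-06 to 0.0023. Col24a1, a fibrillar collagen chain, was at 15.01 ± 2.27, 8.27 ± 2.68, 1.48 ± 0.614 and 6.57 ± 2.47 CPM in Achilles, Flexor, Patellar and Supraspinatus. Of 7 further osteocyte genes, Pdpn, Ptprz1 and Irx5 passed the filter. Pdpn, which encodes the membrane protein podoplanin, was at 13.3 ± 3.06 CPM in Achilles and 24.7 ± 3.27 CPM in Patellar (0.90 ± 0.17, adjusted p = 8.54e-04). Ptprz1 went the other way, at 2.49 ± 0.669 CPM in Achilles and 0.641 ± 0.611 CPM in Patellar (-1.93 ± 0.63, edgeR adjusted p = 0.024). Irx5 did not pass in that comparison (0.01 ± 0.60, edgeR adjusted p = 0.992). Of the 3 tested, 1 was thus higher and 1 lower in Patellar than in Achilles (17.4% and 21.1% of all genes). Mepe and Dspp, the other genes of the chromosome 5 cluster, were too low for testing, at means of at most 0.163 CPM.

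Genes that handle phosphate and pyrophosphate, the substrates of mineral, differed in both directions. All 12 tested of 13 listed differed over the 4 tendons, as did 64.9% of all genes. In Supraspinatus minus Achilles 5 were higher and 2 lower (16.9% and 16.7% of all genes, median of the 12 0.13). In Patellar minus Achilles 3 were higher and 5 lower (17.4% and 21.1%, median -0.35). In Patellar minus Flexor 4 were higher and 6 lower (24.2% and 26.2%, median -0.61), and in Supraspinatus minus Patellar 6 were higher and 2 lower (26.4% and 26.8%, median 0.67). The 2 lower in Supraspinatus than in Achilles and the 3 higher in Patellar than in Achilles are near those shares. Slc20a1 and Slc20a2 code for sodium-phosphate cotransporters. Slc20a1 was at 116 ± 40.4 CPM in Achilles and 56.1 ± 11.8 CPM in Flexor, against 18.9 ± 2.15 CPM in Patellar and 24.98 ± 1.05 CPM in Supraspinatus, and every comparison but Supraspinatus minus Patellar (adjusted p = 0.105) was called. Slc20a2 was lower only in Patellar, at 22.2 ± 1.49 CPM against 141 ± 40.9, 161 ± 23.9 and 124 ± 23.4 CPM in Achilles, Flexor and Supraspinatus.

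Ank, which codes for a transporter in pyrophosphate export, was at 235 ± 34.7 CPM in Supraspinatus against 68.3 ± 5.69 to 96.7 ± 24.4 CPM in the other tendons (1.52 ± 0.16, 1.78 ± 0.16 and 1.28 ± 0.16 over Achilles, Flexor and Patellar, edgeR adjusted p at most 8.17e-06). Phospho1, a phosphatase of matrix vesicles that also occurs in muscle, was at 3.16 ± 0.148 CPM in Supraspinatus, 1.497 ± 0.198 in Flexor, 1.23 ± 0.183 in Achilles and 0.273 ± 0.146 in Patellar. Beside these values, the summed level of 15 skeletal muscle markers was 134067 to 152489 CPM in Supraspinatus, 56204 to 87674 CPM in Flexor, 39857 to 83566 CPM in Achilles and 422 to 8502 CPM in Patellar. Phospho1 followed the order of these sums, and their part in its level was not tested. Ank, like the muscle sum, was highest in Supraspinatus. It was also higher in Patellar, where the muscle sum was lowest, than in Flexor (0.50 ± 0.16, edgeR adjusted p = 0.0164), with overlapping libraries. Patellar minus Achilles (0.24 ± 0.16) and Flexor minus Achilles (-0.26 ± 0.16) did not pass for Ank (edgeR adjusted p = 0.256 and 0.304). The part of muscle in the Ank level was not tested either.

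**Figure D4:**
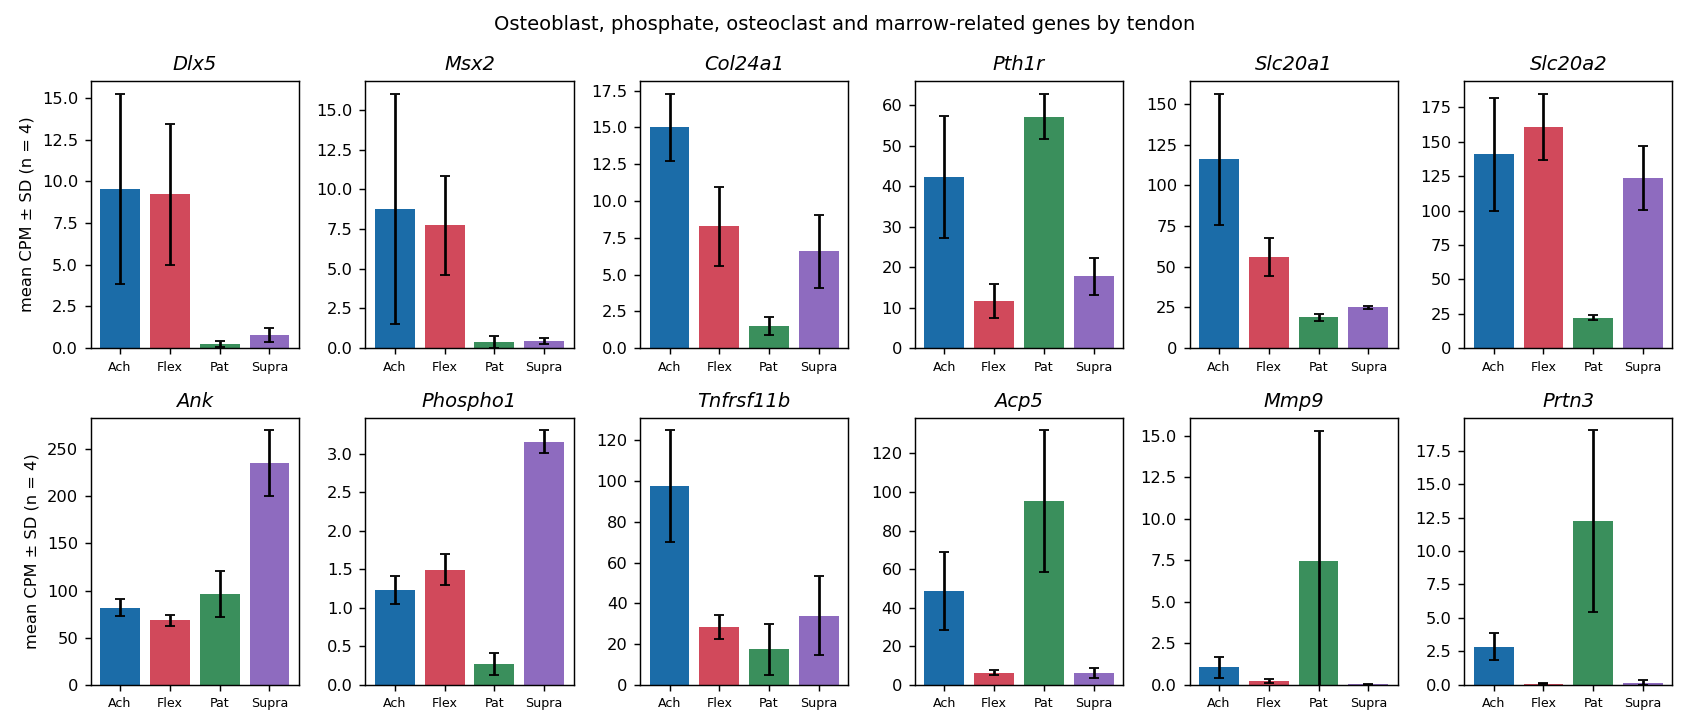
Mean CPM (vertical axes, from 0) of 12 further genes of osteoblasts, phosphate handling, osteoclasts and marrow by tendon (Ach, Flex, Pat and Supra as above), with error bars of 1 SD over 4 libraries. Dlx5 and Msx2 are high in Achilles and Flexor, Pth1r and Acp5 in Achilles and Patellar, Ank and Phospho1 in Supraspinatus, and Mmp9 and Prtn3 in Patellar.

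Genes of bone resorption were described for comparison. Osteoclasts break down bone, and Tnfrsf11b codes for osteoprotegerin, the decoy receptor that limits their formation. Tnfrsf11b was at 97.5 ± 27.3 CPM in Achilles against 28.4 ± 6.03, 17.4 ± 12.5 and 33.9 ± 19.3 CPM in Flexor, Patellar and Supraspinatus, and the 3 comparisons with Achilles were called (edgeR adjusted p = 0.0103, 4.41e-04 and 0.0124). Csf1, from the same list, was at 101 ± 27.6 CPM in Achilles and 151 ± 4.16 CPM in Flexor (0.58 ± 0.17, edgeR adjusted p = 0.0306). It did not pass in Patellar or Supraspinatus minus Achilles (edgeR adjusted p = 0.874 and 0.252). Of 13 osteoclast markers, 5 were higher and 3 lower in Patellar than in Achilles (17.4% and 21.1% of all genes, median of the 13 0.66). In Supraspinatus 3 were higher and 3 lower than in Achilles (16.9% and 16.7%, median 0.17), near the shares of all genes. Acp5, tartrate-resistant acid phosphatase, was at 48.7 ± 20.1 CPM in Achilles and 95.3 ± 36.6 CPM in Patellar against 6.37 ± 1.39 CPM in Flexor and 5.98 ± 2.56 CPM in Supraspinatus. The protease gene Mmp9 was at 7.44 ± 7.86 CPM in Patellar and at most 1.05 ± 0.628 CPM elsewhere. Its Patellar libraries ranged from 0.538 to 18.5 CPM and overlapped with those of Achilles, at 0.470 to 1.67 CPM. Clcn7 and Ostm1 went the other way. They were at 37.5 ± 6.35 and 19.6 ± 5.07 CPM in Patellar against 62.6 ± 3.04 and 32.1 ± 2.60 CPM in Achilles. Both were called lower in Patellar (edgeR adjusted p = 1.35e-04 and 0.00325). Calcr, the calcitonin receptor of osteoclasts, had 0 counts in Patellar.

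Markers of other cells that a tendon sample could hold were set beside the members. Summed cartilage markers (11 genes) ranged from 3283 to 8631 CPM in Achilles, 2982 to 6222 CPM in Flexor, 1953 to 2811 CPM in Patellar and 1061 to 2215 CPM in Supraspinatus. Nearly all of the sum was Chad, at 5437 ± 2414, 4133 ± 1386, 2162 ± 374 and 1827 ± 539 CPM in the same order. Other cartilage genes had other orders. Ucma was at 10.6 ± 3.80, 3.41 ± 2.09, 4.29 ± 2.20 and 0.270 ± 0.172 CPM in Achilles, Flexor, Patellar and Supraspinatus. Matn3 was at 2.78 ± 1.72, 0.153 ± 0.0493, 1.96 ± 1.46 and 0.337 ± 0.220 CPM in those tendons. Both were called lower in Flexor and Supraspinatus than in Achilles. Neither passed in Patellar minus Achilles (edgeR adjusted p = 0.0592 and 0.523). Col9a1 was at 18.0 ± 3.98 CPM in Flexor and 0.650 ± 0.0784 CPM in Achilles (4.79 ± 0.50, edgeR adjusted p = 1.57e-05), and Sox9 was at 29.4 ± 5.79 CPM in Achilles and 45.3 ± 11.3 CPM in Supraspinatus, which did not pass (adjusted p = 0.187). Of the 10 tested, 4 were called in Supraspinatus minus Achilles, all lower, against 16.7% of all genes. In Flexor minus Achilles 1 was higher and 2 lower (6.5% and 9.72%). Panx3 had 0 counts in Flexor and Supraspinatus and reached at most 0.010 CPM in Achilles and 0.664 CPM in Patellar. Summed macrophage markers overlapped between all tendons, from 420 to 1769 CPM in Achilles, Flexor and Patellar and from 761 to 2113 CPM in Supraspinatus. At most 1 of the 11 macrophage markers was called in any comparison, Gpnmb, at 30.3 ± 6.01 CPM in Supraspinatus and 53.7 ± 15.5 to 72.5 ± 35.5 CPM elsewhere. In Supraspinatus 1 gene, Lyz2, made up 655 ± 438 of the macrophage sum of 1172 ± 635 CPM. Supraspinatus replicate 3, the library high in Spp1, had the lowest macrophage sum of its tendon (761 CPM, against 826 to 2113 CPM). The part of macrophages in its Spp1 level was not tested.

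Adipocyte markers (8 genes) summed to 6037 to 10707 CPM in Achilles and 8533 to 20206 CPM in Patellar, against 639 to 2246 CPM in Flexor and Supraspinatus, the division seen in Runx2, Pth1r and Acp5. The part of these cell types in the levels of the members was not tested. With rRNA-like, mitochondrial, haemoglobin and muscle marker genes removed before scaling, the numbers of members called higher and lower were as before in all 6 comparisons. Scaling by total counts moved the median of all genes by up to -0.37 (Supraspinatus minus Achilles) and gave the same numbers of members in each direction.

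The genes most like Ibsp over the 16 libraries in log2 CPM were Fbxo2 and Meltf (Pearson r = 0.94 for both) and Pcsk4, Lgi1 and Isl1 (r = 0.93 for each). Meltf, which codes for melanotransferrin, was at 31.9 ± 9.89 CPM in Achilles, 1.73 ± 1.45 in Patellar, 1.17 ± 0.576 in Flexor and 0.212 ± 0.264 in Supraspinatus. Isl1, a homeobox gene, was at 10.1 ± 4.28 CPM in Achilles and at most 0.573 ± 0.461 CPM elsewhere. The genes most like Spp1 were Hapln1 (r = 0.97), Prg4, Clec3a and Cytl1 (r = 0.95 for each) and Sostdc1 (r = 0.94). Prg4, which codes for lubricin, was at 2703 ± 862 CPM in Achilles, 2151 ± 283 CPM in Flexor, 1498 ± 376 CPM in Patellar and 882 ± 179 CPM in Supraspinatus. Cytl1 was at 231 ± 24.1, 374 ± 118, 15.04 ± 12.9 and 7.25 ± 4.34 CPM in the same order. These correlations describe the same 16 libraries, which fall into 4 tendons, and share depth and scaling.

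The authors' deposited table lists 4 of the 10 members, Ibsp, Spp1, Runx2 and Alpl, among 13452 genes. In the authors' deposited table, turned to the direction used here, the log2 fold change of Ibsp was -7.01 in Flexor minus Achilles (FDR = 8.55e-07) and -10.17 in Supraspinatus minus Achilles (FDR = 5.35e-08). For Spp1 the authors' deposited table gave -0.65 in Flexor minus Achilles (FDR = 0.439). The authors' deposited table gave 0.21 for Runx2 in Patellar minus Achilles (FDR = 0.679) and -1.53 for Alpl (FDR = 0.00215).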

How the data were processed

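RNA was measured by sequencing in 16 libraries, 4 from each of 4 tendons, grouped by the tissue named in the labels. The authors deposited whole-number read counts for 41204 genes with no normalization. The build mm10 and the tools HISAT2, FastQC and edgeR are named in the submitters' processing notes. No source used here names the read counter, its strand setting or the annotation. The authors also deposited a table of log2 fold changes and p-values with FDR for 13452 genes. Its sign is opposite to the direction used here, first-named tendon minus second, and was turned for printing.

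The analysis used edgeR 4.0.16 in R 4.3.3. After filterByExpr by tendon and TMM scaling, all 16 libraries were fitted together by robust quasi-likelihood, each tendon having its own mean. The 6 pairwise contrasts and the test over all 4 tendons were 2-sided, each adjusted by Benjamini-Hochberg over 23754 genes, with a threshold of 0.05. Each standard error is |log2 fold change| over the square root of its F value. Fitted fold changes of genes with few counts depend on edgeR's prior count. Counting intervals of 95% are exact. Log2 CPM for correlations used a prior count of 2.

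Alternatives were median-ratio size factors, total counts, no filter, DESeq2 1.42.0, voom in limma 3.58.1, a block for mouse number, the 8 libraries of a pair alone, fits without Patellar, removal of rRNA-like, mitochondrial, haemoglobin and muscle marker genes, and leaving out each library. The steps were tested on simulated counts in which 200 genes were changed. In Flexor minus Achilles 35% of 2-fold and 63% of 4-fold changes were recovered, with 3 false calls among 101. In Patellar minus Achilles 29% and 66% were recovered, with 5 false calls among 100. A comparison that did not pass can therefore hold a change of such a size. The 2 counts of members higher in Achilles or lower in Supraspinatus than in each other tendon were added after seeing the data. The members and gene lists were chosen with earlier results of these data known. All 10 members are named, and the 5 genes with mean CPM of at least 1 most correlated with Ibsp and with Spp1. From each list up to 4 genes were selected in order of adjusted p over all tendons, but not all of these are given. A list of 8 Wnt receptors and targets was also counted and is not described. Further genes named, such as Mepe, Dspp, Omd, Sox9, Panx3 and Calcr, were chosen after their values were seen. Positions and exon lengths come from GENCODE for GRCm38, the assembly of mm10, and promoters from RefSeq on GRCm38.p6, where 8 of 10 members matched. Motifs were searched in Python 3.11.15, transcripts aligned with Biopython 1.88 and figures drawn with matplotlib 3.10.9.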

Additional observations from a re-analysis of the deposited data

Results flagged for a closer look

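In 39 groups of 4 libraries tested for a value far from the rest (the gap to the nearest library over the group's range, above Dixon's critical value for 4), 4 were found, and chance alone gives about 1 in 20 groups where no values are tied. The last 2 below come from groups with 3 libraries at 0, to which that rate does not apply. Spp1 in Supraspinatus replicate 3 was at 49.3 CPM, with the other Supraspinatus libraries at 6.33 to 11.6 CPM. Runx2 in Patellar replicate 4 was at 6.73 CPM, with the other Patellar libraries at 2.26 to 2.60 CPM. Bglap2 in Supraspinatus replicate 2 was at 0.0262 CPM (2 counts) and Sp7 in Supraspinatus replicate 3 at 0.0122 CPM (1 count), with the other Supraspinatus libraries at 0.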

How the results depend on the processing

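The 38 called values of members were refitted 924 times over the alternatives. Of these, 902 kept direction and call, 22 kept direction but lost the call, and 0 changed direction. Of the 22, 13 were Sp7 and 8 Bglap or Bglap2 in Supraspinatus minus Flexor, and 1 was Runx2 in Supraspinatus minus Achilles. Among values that had not passed, 7 of 392 refits passed. Sp7 in Flexor minus Achilles did so with limma-voom, with the 8 libraries alone and without Patellar (adjusted p = 0.031, 0.0482 and 0.0368), Runx2 in Supraspinatus minus Flexor without Patellar (0.84, adjusted p = 0.0438), and Bglap2 in Patellar minus Flexor with DESeq2 and without Flexor replicate 3 or Patellar replicate 4. Another 18 uncalled values changed sign. Runx2 in Patellar minus Achilles was -0.11 with total counts, -0.042 with limma-voom and -0.43 to 0.26 with 1 library left out, below 0 without Achilles replicate 3 (-0.050) or Patellar replicate 4. Alpl in Supraspinatus minus Achilles was 0.000183 without Patellar, 0.015 with rRNA-like, mitochondrial, haemoglobin and muscle genes removed, and -0.15 to 0.10 with 1 library left out, above 0 without Achilles replicate 1 or 3 or Supraspinatus replicate 2. With total counts Alpl and Dmp1 in Supraspinatus minus Flexor were -0.049 and -0.13, and Dmp1 was -0.18 to 0.40 with 1 library left out, below 0 without Flexor replicate 1 or Supraspinatus replicate 4. Phex in Flexor minus Achilles was -0.064 to 0.34, below 0 without Achilles replicate 3. Phex in Supraspinatus minus Patellar was 0.00123 with limma-voom and -0.42 to 0.25 with 1 library left out, above 0 without Patellar replicate 1 or 3 or Supraspinatus replicate 1.

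Counts that moved by over 1.5 times were few. Genes called in Flexor minus Achilles numbered 3853, with 6580 in the 8 libraries alone, 6960 without Patellar and 2520 to 5358 with 1 library left out. In Patellar minus Achilles the 8 libraries alone gave 5854 against 9131. Members called in Supraspinatus minus Flexor numbered 3 in the 8 libraries alone, where 6 were tested, and 3 to 6 with 1 library left out. Members lower in Supraspinatus than in each other tendon numbered 2 in the 8 libraries alone and 2 to 5 with 1 library left out. In the 8 libraries alone Bglap, Bglap2 and Sp7 were not tested in Supraspinatus minus Flexor. The cause of the other changes was not tested. Total counts changed the share of calls that were higher in Supraspinatus minus Achilles from 50.4% to 20.9%, in Supraspinatus minus Flexor from 54.2% to 30.5%, in Patellar minus Achilles from 45.2% to 29.7% and in Flexor minus Achilles from 40.0% to 25.0%.

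With the mouse number as a block, 4, 6, 7, 7, 5 and 8 members were called in the 6 comparisons in the order given above and 9 over all tendons. The block ended 1 call of a member, Sp7 in Supraspinatus minus Flexor (-3.79, adjusted p = 0.0872), leaving 4 members lower in Supraspinatus than in each other tendon. The numbers were not treated as pairs, since deviations from the tendon means correlated above 0.1 in 2 of 24 same-number pairs (range -0.13 to 0.26), and 6 of 16 libraries correlated best with their own number. Both pairs above 0.1 joined Supraspinatus and Flexor (0.150 for number 2 and 0.255 for number 4). Whether a number marks 1 animal in all tendons stays unknown. Depth limits Bglap, Bglap2, Sp7 and Sost, which had at most 5 counts each over all Supraspinatus libraries.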
